A study of Mus musculus with 8 samples.

Results

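The epidermal growth factor (EGF) receptor family was examined in oral epithelium through 8 genes: the receptor genes Egfr, Erbb2 and Erbb3 and the ligand genes Areg, Ereg, Btc, Hbegf and Tgfa. They were chosen by gene name, all 8 were present among the 22911 genes of the deposited table, and all 8 were among the 15098 genes that passed a filter on low counts. RNA came from sorted epithelial cells of the buccal mucosa (the lining of the cheek), freed with the protease dispase II, of adult mice of the inbred strain C57BL/6, with no treatment before the tissue was taken. The animals were either germ-free (GF), reared with no microbes, or specific pathogen-free (SPF), colonized but kept clear of listed pathogens, with 4 animals and 1 library per animal in each group. The markers of the sort, the sex of the animals and the hour of sampling are not given in the labels.

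EGF receptors are membrane tyrosine kinases that pair with one another when a ligand binds. EGFR binds all of the ligands studied here, ERBB2 has no known soluble ligand and acts as the preferred partner of the others, and ERBB3 binds neuregulins and signals through its partner because its own kinase is weak. The ligands are made as membrane-anchored precursors and are released by ADAM metalloproteases. In stratified epithelia this signalling, relayed through RAS and the ERK kinases, supports the division and survival of basal keratinocytes, which is why the family was set beside the genes of mitosis.

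Gene counts summed to between 10430507 and 15524731 in GF libraries and between 10260264 and 14730960 in SPF libraries, and levels are given as CPM, the count of a gene relative to the library total, adjusted for library composition. Summed over 7 basal keratinocyte markers, levels lay between 27886 and 30403 CPM in GF and between 29788 and 31749 CPM in SPF libraries, and over 9 suprabasal markers between 14822 and 23837 CPM in GF and between 17324 and 26208 CPM in SPF libraries. GF 3 and GF 4 stood apart in markers of other cells. GF 3 held 815 CPM over 10 stromal markers, where the other GF libraries held 96.0 to 149.8 CPM and SPF libraries 58.2 to 91.6 CPM. GF 4 held 90.3 CPM over 6 salivary gland markers, where no other library exceeded 2.51 CPM. Endothelial markers summed to 9.94 to 99.1 CPM in GF and 4.08 to 10.4 CPM in SPF libraries, and immune markers to 6.91 to 24.2 CPM in GF and 4.68 to 9.62 CPM in SPF libraries. Markers of Schwann cells summed to 67.0 to 85.2 CPM in GF and 54.6 to 61.3 CPM in SPF libraries, most of it from Mbp, while their defining gene Sox10 did not exceed 1.76 CPM in any library. Melanocyte markers summed to 0.662 to 4.49 CPM in GF and 1.37 to 3.50 CPM in SPF libraries, and muscle markers to 0.515 to 11.4 CPM in GF and 0.611 to 2.81 CPM in SPF libraries. Of all the markers, Emcn (endothelial) and Mbp were called higher and Ivl (suprabasal) lower in GF libraries, while the 9 stromal markers that were tested all had log2 fold changes above 0 and none was called. Salivary gland and muscle markers were too low to be tested. No marker in the table was at 0 in all 8 libraries, and Cd207, Mlana and Tyrp1 were not analysed here. In such bulk samples fewer cells of a type and less RNA per cell cannot be told apart.

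The promoters of the member with the largest fitted variation within groups (the biological coefficient of variation of edgeR), Areg, and of the member whose groups did not overlap, Egfr, are shown first. Both run 5′ to 3′ over the 250 bases before the annotated start (RefSeq, GRCm38.p6), on the plus strand at chr5:91139349-91139598 for Areg and chr11:16751953-16752202 for Egfr.
Areg: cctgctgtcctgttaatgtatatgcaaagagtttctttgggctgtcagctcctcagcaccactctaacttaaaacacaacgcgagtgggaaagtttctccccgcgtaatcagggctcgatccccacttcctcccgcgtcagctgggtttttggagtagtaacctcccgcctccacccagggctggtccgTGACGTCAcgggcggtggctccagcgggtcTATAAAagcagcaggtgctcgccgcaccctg
Egfr: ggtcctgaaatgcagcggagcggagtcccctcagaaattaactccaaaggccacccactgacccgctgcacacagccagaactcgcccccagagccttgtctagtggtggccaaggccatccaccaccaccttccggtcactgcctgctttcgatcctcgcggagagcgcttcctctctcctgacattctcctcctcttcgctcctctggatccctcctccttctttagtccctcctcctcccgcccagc
The capitals in the Areg sequence mark a cyclic AMP response element (CRE, TGACGTCA), which begins at base -61 from the start, and a TATA box (TATAAA) at base -31. The search covered both strands for these and for an AP-1 site (TGANTCA) and an E-box (CACGTG), 4 motifs that do not overlap in these sequences. Of 32851 mouse promoter windows of the same length 1.55% held the CRE, 12.4% the TATA box, 6.75% the AP-1 site and 6.02% the E-box. Promoters of 5 of the 8 genes were matched, and in those of Egfr, Erbb2, Btc and Tgfa none of the 4 motifs was found. Areg, Ereg and Btc lie on chromosome 5 at 91139599 to 91148432, 91074622 to 91093646 and 91357261 to 91402994 (GRCm38).

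None of the 8 genes passed the test between GF and SPF libraries at an adjusted p under 0.05 (the quasi-likelihood F test of edgeR, adjusted over all genes by the Benjamini-Hochberg method), where 4.18% of all tested genes were called. The unadjusted p was under 0.05 for 1 gene, Egfr. DESeq2 called the same gene, limma voom called 0, and the authors' deposited table called 0 of the 8, where it called 5.21% of the genes to which it gives an adjusted p. The median log2 fold change (GF over SPF) was -0.07 over the 8 genes and 0.02 over all tested genes, with 3 genes above 0 and 5 below. GF and SPF libraries were fully separate in level for 1 gene, Egfr, and for 13.1% of all tested genes.

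Egfr (chromosome 11, 16752203 to 16918158, plus strand, GRCm38) encodes the receptor that the 5 ligands share. It was measured at 320, 351, 310 and 313 CPM in GF libraries 1 to 4 and at 270, 284, 282 and 265 CPM in SPF libraries 1, 3, 4 and 5. Every GF library thus lay above every SPF library. The mean was 323 ± 18.7 CPM in GF and 275 ± 9.21 CPM in SPF libraries (SD, n = 4 each), a 1.17-fold difference. The log2 fold change was 0.23 ± 0.08 (SE), with a 95% interval of 0.07 to 0.40, an unadjusted p of 0.00958 and an adjusted p of 0.112 by edgeR. DESeq2 gave 0.23 with an adjusted p of 0.0462. In the authors' deposited table, whose fold changes run SPF over GF, the value was -0.23 with an adjusted p of 0.0639. The unadjusted p of the Wald test of DESeq2 was 0.00368 in both, so the 2 results differ in the adjustment over genes only. Over the alternatives to edgeR's fit the adjusted p lay between 0.0462 and 0.405. Without GF 3, the library with the highest stromal markers, the log2 fold change was 0.25, and without GF 4 it was also 0.25. It shrank to 0.19 without GF 2, the library with the highest Egfr level. With libraries 1, 3 and 4 of both groups blocked by number it was 0.16 (edgeR adjusted p = 0.405).

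Erbb2 (chromosome 11, 98412470 to 98437716, plus strand), which encodes the partner receptor, was at 199, 201, 173 and 167 CPM in GF and at 199.8, 184, 166 and 182 CPM in SPF libraries. The groups overlapped almost completely, and the log2 fold change was 0.02 with a 95% interval of -0.17 to 0.21 (edgeR adjusted p = 0.943). Erbb3 (chromosome 10, 128567523 to 128589652, minus strand), the receptor for neuregulins, was at 165, 154, 152 and 161 CPM in GF and at 149.9, 167, 173 and 175 CPM in SPF libraries. Its log2 fold change was -0.07 with an interval of -0.24 to 0.09 (edgeR adjusted p = 0.647). The intervals of both genes leave out any difference as large as 1.5-fold.

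Among the ligands, Areg, which encodes amphiregulin, was at 0.368, 2.178, 4.93 and 2.51 CPM in GF libraries 1 to 4 and at 0.712, 5.68, 17.3 and 4.88 CPM in SPF libraries 1, 3, 4 and 5. GF 1 and SPF 1 were the lowest of their groups and SPF 4 was far above the rest. The means were 2.49 ± 1.87 CPM in GF and 7.15 ± 7.13 CPM in SPF libraries, and the log2 fold change of -1.52 ± 0.94 did not pass (95% interval -3.71 to 0.68, edgeR adjusted p = 0.431). Without SPF 4 it was -0.60, and with the mean of the stromal markers as a covariate it was -3.14.

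Hbegf, which encodes heparin-binding EGF-like growth factor, was the most abundant of the ligands. It was at 49.5, 86.7, 109.6 and 119 CPM in GF and at 21.9, 61.1, 135 and 121 CPM in SPF libraries. GF 1 and SPF 1 were again the lowest of their groups, and the SPF range enclosed the whole GF range. The means were 91.1 ± 30.9 CPM in GF and 84.8 ± 52.8 CPM in SPF libraries, with a log2 fold change of 0.10 ± 0.59 (interval -1.32 to 1.52, edgeR adjusted p = 0.951).

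Ereg, which encodes epiregulin, was at 0.515, 0.198, 1.151 and 1.58 CPM in GF and at 0, 0.89, 2.21 and 0.583 CPM in SPF libraries. Only 3 to 18 counts per GF library and 0 to 29 per SPF library stood behind these values, and the 0 in SPF 1 allows a level of up to 0.305 CPM (3 counts). The log2 fold change of -0.14 had an interval of -2.03 to 1.75, which takes in differences of 3-fold in either direction (edgeR adjusted p = 0.953). Btc, which encodes betacellulin, was at 1.177, 1.65, 0.895 and 0.557 CPM in GF and at 1.93, 1.64, 1.68 and 1.89 CPM in SPF libraries. Of the GF libraries 3 lay below every SPF library and GF 2 lay among them, and the log2 fold change of -0.72 ± 0.48 did not pass (interval -1.76 to 0.32, edgeR adjusted p = 0.44). Tgfa (chromosome 6, 86195223 to 86275719), which encodes transforming growth factor alpha, was at 5.74, 7.13, 6.40 and 15.3 CPM in GF and at 10.2, 7.46, 8.09 and 10.3 CPM in SPF libraries. GF 4 alone lay above the SPF libraries and the other GF libraries lay below them. The log2 fold change was -0.06 over all libraries and -0.49 without GF 4 (edgeR adjusted p = 0.937 and 0.347). GF 4 is also the library with the highest salivary gland markers, whose part in its Tgfa level was not tested. The signs of the differences of Erbb2, Ereg, Hbegf and Tgfa changed with the library left out, and are not read as directions.

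**Figure D1:**
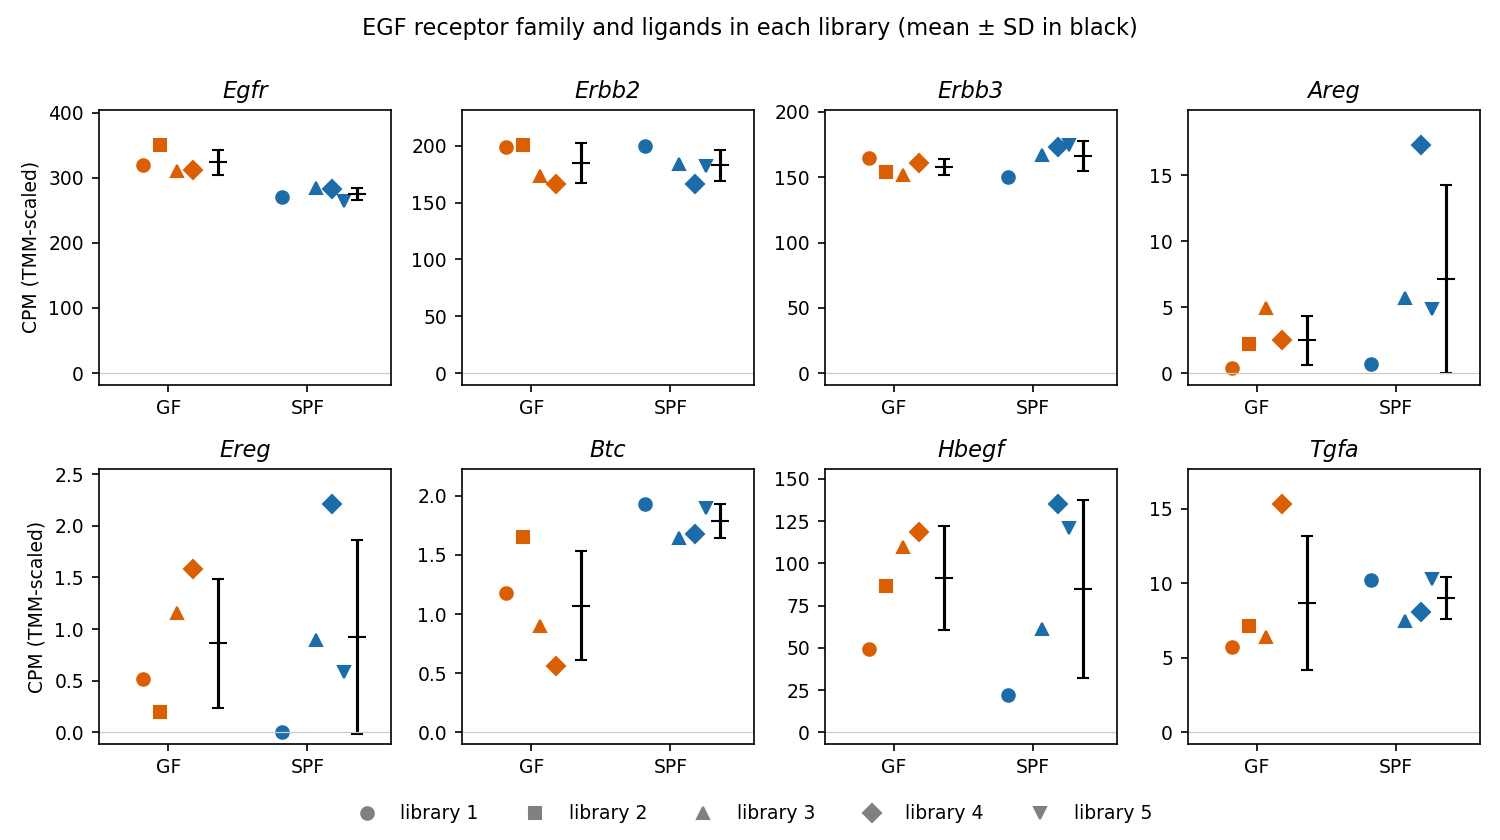
Level of each of the 8 genes in CPM (vertical axes, linear) in the 4 GF libraries (orange, left) and the 4 SPF libraries (blue, right), with the mean and SD in black and 1 symbol shape per library number. Egfr separates the groups, from 310 to 351 CPM in GF against 265 to 284 CPM in SPF libraries, as do 13.1% of all tested genes. Areg, Ereg and Hbegf spread widely within both groups.

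Levels of different genes were compared per kilobase of exon (GENCODE M21, union of exons), as CPM per kilobase averaged over all 8 libraries. The order was Erbb2 (35.3), Erbb3 (26.9), Egfr (26.4), Hbegf (18.2), Areg (3.97), Tgfa (1.36), Btc (0.316) and Ereg (0.216). Erbb2 was above Erbb3 in 8 of 8 libraries. Erbb3 and Egfr did not differ beyond their spread over the 8 libraries, but with this length their order depended on the group: Egfr was above Erbb3 in all 4 GF libraries and below it in all 4 SPF libraries. In GF libraries Egfr averaged 28.6 ± 1.65 and Erbb3 26.2 ± 0.987 CPM per kilobase, and in SPF libraries Egfr averaged 24.3 ± 0.814 and Erbb3 27.6 ± 1.89 CPM per kilobase. Egfr was above Hbegf in 6 of 8 libraries, with Hbegf ahead in SPF 4 and SPF 5. Areg was above Tgfa in 5 of 8 libraries and Btc above Ereg in 5 of 8, so that neither pair could be ordered. With the length of the longest transcript in place of the union of exons Hbegf was at 30.4 CPM per kilobase, above Egfr at 29.3 and Erbb3 at 26.9. The order among these 3, and the change of places of Egfr and Erbb3 between the groups, thus depend on the length used. Exons of Ereg and Tgfa share 141 and 118 bases with genes annotated on the opposite strand, and those of Erbb2 share 9 bases with Mien1. Whether counting used the strand is not stated, so reads in those stretches could belong to either gene.

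**Figure D2:**
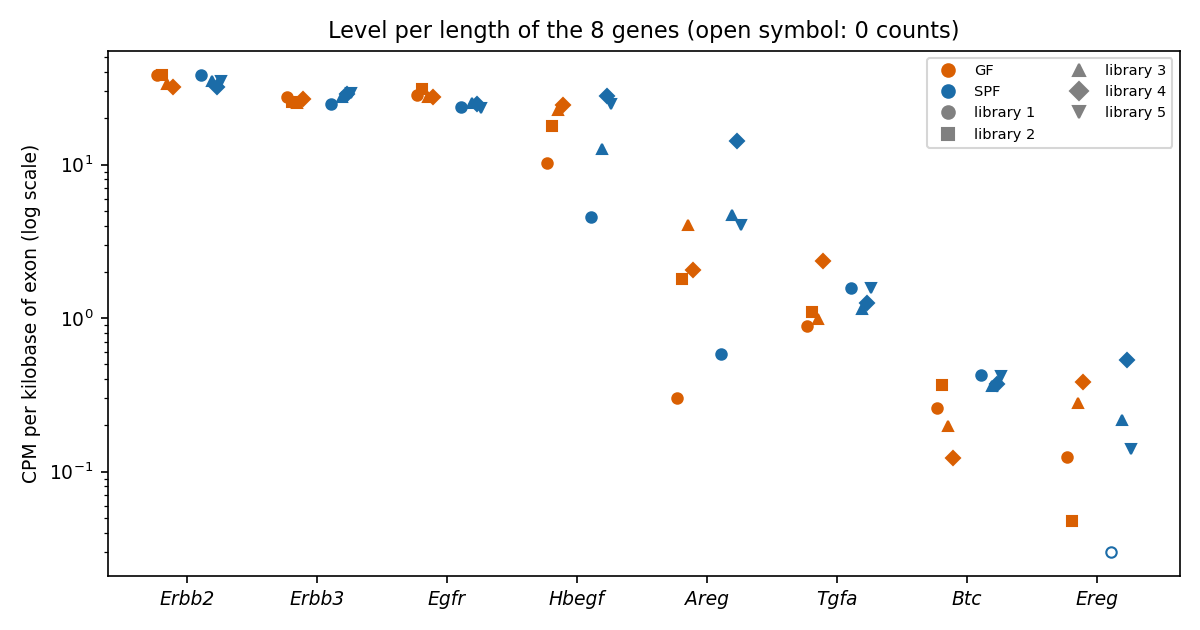
CPM per kilobase of exon (vertical axis, log scale) for each gene in each library, GF in orange to the left of SPF in blue, ordered by the mean over 8 libraries. The open symbol stands for the 0 counts of Ereg in SPF 1 and has no height of its own. The 3 receptor genes lie above all ligands but Hbegf, and Hbegf lies above Areg within each of the 8 libraries although their ranges overlap. Egfr and Erbb3 change places between the groups with this length, the union of exons.

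The receptors varied little between animals, and 3 of the ligands varied a great deal in both groups. The coefficient of variation (SD over mean) of Egfr was 5.79% in GF and 3.35% in SPF libraries, that of Erbb2 9.49% in GF and 7.45% in SPF libraries, and that of Erbb3 3.76% in GF and 6.85% in SPF libraries. For Areg it was 75.1% in GF and 99.7% in SPF libraries, for Ereg 72.2% in GF and 101.7% in SPF libraries, and for Hbegf 33.9% in GF and 62.3% in SPF libraries. Tgfa varied by 51.9% in GF libraries, where GF 4 stood far above the rest, and by 16.0% in SPF libraries. Btc varied by 43.2% in GF and 8.25% in SPF libraries. Counting error alone would give Hbegf 2.83% in GF and 2.97% in SPF libraries and Areg 16.8% in GF and 10.2% in SPF libraries. For Ereg, with few counts, it would give 29.8% in GF and 28.3% in SPF libraries, and for Btc 25.6% in GF and 21.0% in SPF libraries. The spread of Btc in SPF libraries lay below its counting error, so its contrast with GF is not read as a difference between the groups. The biological coefficient of variation fitted by edgeR within groups placed Erbb3, Egfr and Erbb2 at the 1.03, 3.66 and 7.19 percentiles of all tested genes, from the least to the most variable. Hbegf, Ereg and Areg were at the 91.7, 97.9 and 98.9 percentiles, and Tgfa and Btc at 66.0 and 75.5.

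The variable ligands were set beside 12 genes listed as immediate targets of EGF receptor and ERK signalling. These are transcription factor and feedback genes that respond within a short time. Whether EGF receptor signalling set their levels here was not tested. None of the 12 was called between the groups by edgeR, DESeq2 or limma voom, and 0 had an unadjusted p under 0.05 by edgeR (median log2 fold change 0.18). The 2 with the smallest unadjusted p were Jun, at 1168 ± 433 CPM in GF and 669 ± 295 CPM in SPF libraries, and Dusp1, which encodes a phosphatase of MAP kinases, at 342 ± 107 CPM in GF and 219 ± 98.4 CPM in SPF libraries. The mean level of the 12 genes, as log2(CPM + 1), was 6.08, 6.46, 6.85 and 7.003 in GF libraries 1 to 4 and 5.68, 6.34, 6.95 and 6.73 in SPF libraries 1, 3, 4 and 5. The groups overlapped, and GF 1 and SPF 1 were the lowest of their groups, as they were for Hbegf and Areg. Of the single genes behind this mean, 8 of the 12 were lowest in GF 1 among GF libraries. Among SPF libraries 11 of the 12 were lowest in SPF 1. Myc went the other way in GF libraries, with its highest level in GF 1. How many of all tested genes were lowest in these libraries was not counted. Fos, picked after its values were seen, was at 508, 668, 895 and 1027 CPM in GF and at 238, 533, 1250 and 658 CPM in SPF libraries.

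Across the 8 libraries the log2(CPM + 1) level of Hbegf followed this mean with Pearson's r = 0.97 (exact permutation p = 0.000273, adjusted p = 0.00218 over 8 relations, 1 per gene) and Spearman's rho = 0.881 (exact permutation p = 0.00724, adjusted p = 0.041). Without GF 1 and SPF 1, the 2 libraries farthest from the median, r was 0.905. Ereg rose with it too (r = 0.826, exact permutation p = 0.012, adjusted p = 0.0321; rho = 0.857, exact permutation p = 0.0107, adjusted p = 0.041; r = 0.73 without the 2 libraries). Erbb2 ran the other way (r = -0.859, exact permutation p = 0.00623, adjusted p = 0.0249; rho = -0.833, exact permutation p = 0.0154, adjusted p = 0.041; r = -0.838 without the 2 libraries). For Areg r was 0.712 (exact permutation p = 0.047, adjusted p = 0.0939), rho was 0.571 (exact permutation p = 0.151, adjusted p = 0.302) and r without the 2 libraries was 0.274, so the relation did not pass and rested on GF 1 and SPF 1. Egfr (r = 0.121), Erbb3 (0.392), Btc (-0.478) and Tgfa (0.257) gave adjusted p-values between 0.37 and 0.77 by the exact permutation test. These relations were chosen for testing after the library values had been seen, a choice that the adjustment does not cover. Their p-values are therefore read as a description only. The parts of library depth, of EGF receptor signalling and of the freeing and sorting of the cells in these relations were not tested.

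**Figure D3:**
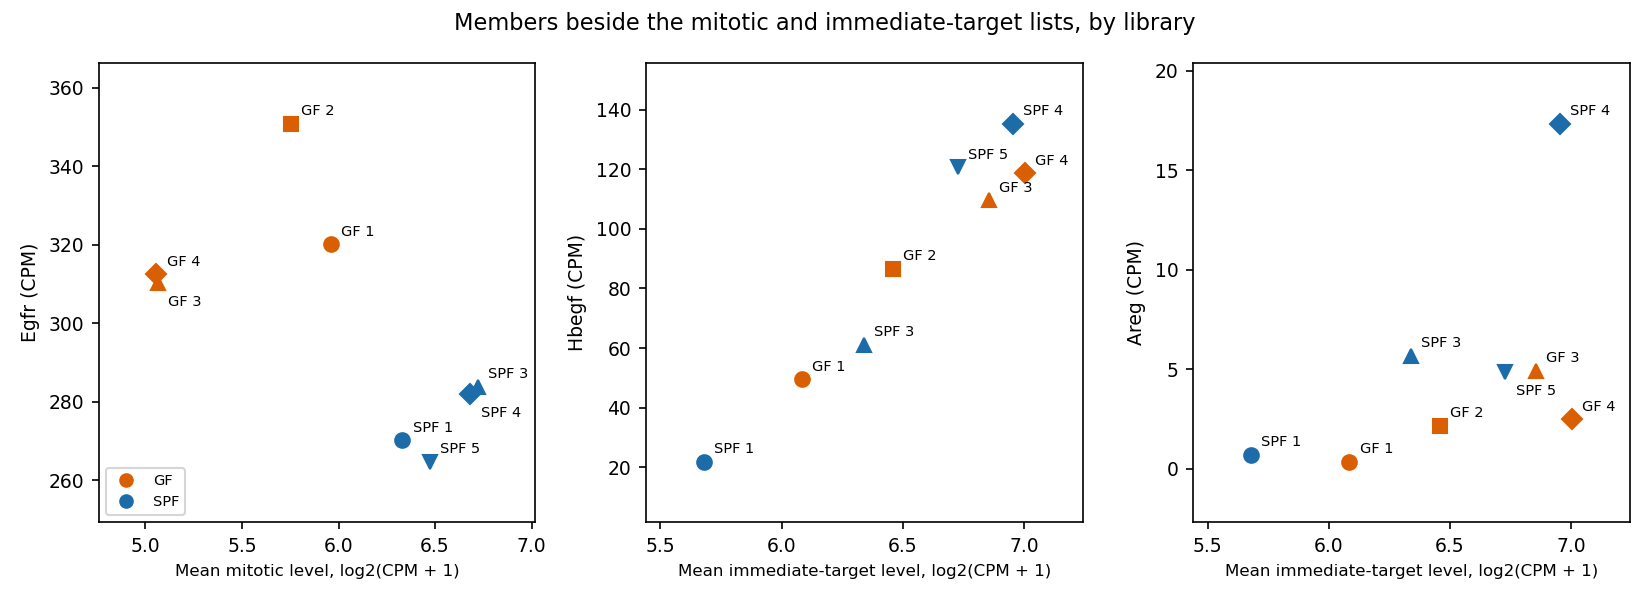
Level of Egfr against the mean log2(CPM + 1) of 36 mitotic genes (left), and of Hbegf (middle) and Areg (right) against the mean log2(CPM + 1) of 12 immediate targets, 1 point per library, with levels in CPM on linear vertical axes. Hbegf climbs from 21.9 CPM in SPF 1 to 135 CPM in SPF 4 along the immediate targets with both groups on 1 band. Egfr forms 2 separate clusters, GF at the upper left and SPF at the lower right. Both axes of that panel separate the groups, so its clusters are not read as a relation between Egfr and mitosis.

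Genes of mitosis were lower in GF libraries as a group. Of 36 tested mitotic genes 20 fell, 0 rose and 16 did not pass by edgeR (2.33% of all tested genes fell), and all 36 had a log2 fold change below 0 (median -1.07). Kif11, a spindle motor, was at 61.6 ± 13.6 CPM in GF and 144.7 ± 21.2 CPM in SPF libraries (log2 fold change -1.23 ± 0.16, edgeR adjusted p = 0.00247). Kif4, a chromosome-bound kinesin (-1.25), Tpx2, a spindle assembly factor (-1.22), and Cdc25c, a phosphatase that activates CDK1 at entry into mitosis (-1.20), fell to a similar extent. The number that fell was 33 without GF 1, 12 without GF 4, 7 without SPF 3, 7 without SPF 4 and 11 without SPF 5. With the mean of the stromal markers as a covariate 1 was called, Kif4 (-1.18), and 23 had an unadjusted p under 0.05. Kif11 then stood at -1.07 (edgeR adjusted p = 0.069). The fold changes of both genes thus stayed close in size, while Kif4 kept its call and Kif11 lost it.

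The mean mitotic level, as log2(CPM + 1), was 5.96, 5.75, 5.06 and 5.06 in GF libraries 1 to 4 and 6.33, 6.72, 6.68 and 6.47 in SPF libraries 1, 3, 4 and 5. The groups did not overlap, so no correlation over the 8 libraries was computed, and 4 libraries are too few for one within a group. Egfr stood on the opposite side of this difference, higher in every GF library while the mitotic mean was lower in every GF library. Full separation of the groups was found for 13.1% of all tested genes, and Egfr was not called by edgeR. The contrast is therefore a description only. GF 1 and GF 2 held both the higher Egfr and the higher mitotic mean of their group, and so did SPF 3 and SPF 4 of theirs. With 4 libraries a group and small gaps in Egfr, this is not read as a relation within groups. Btc was below all SPF libraries in GF 1, GF 3 and GF 4, and was lowest in GF 3 and GF 4, the libraries with the lowest mitotic means. In GF 2 it lay among the SPF libraries, and it was not called. Only 14 and 6 counts stood behind its levels in GF 3 and GF 4, so no relation is read from Btc either. Hbegf ran from 49.5 to 119 CPM over the 4 GF libraries and from 21.9 to 135 CPM over the SPF libraries, with the groups overlapping.

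The genes whose levels varied most like Egfr within groups were found among 8975 named genes averaging 10 CPM or more, by the Pearson correlation of deviations from the group means over the 8 libraries, as a description. They were Cpd, which encodes carboxypeptidase D (0.981), Spc25, a kinetochore subunit gene (0.972), and Vill, a villin-like gene (0.969). Cpd was at 213 CPM in GF and 175 CPM in SPF libraries and Vill at 19.5 CPM in GF and 15.5 CPM in SPF libraries, and neither passed the test. Spc25 fell to 14.8 CPM in GF, against 32.7 CPM in SPF libraries (log2 fold change -1.14 ± 0.21, edgeR adjusted p = 0.00888). These genes were picked as the highest of 8975 correlations over 8 libraries. How high such correlations would be by chance was not tested. The likeness of Spc25 to Egfr within groups is therefore not read as a relation, and no contrast between the groups is drawn from it.

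Of 7 further genes of the family (Erbb4, Egf, Epgn and Nrg1 to Nrg4) 6 were tested and 0 called by edgeR, with 1 at an unadjusted p under 0.05. Erbb4, the neuregulin receptor with an active kinase, was at 3.68, 3.04, 2.49 and 0.836 CPM in GF and at 0.102, 0.821, 0.535 and 0.583 CPM in SPF libraries. All GF libraries lay above all SPF libraries, GF 4 by a small margin. The log2 fold change was 2.25 ± 0.62 (95% interval 0.91 to 3.58, edgeR adjusted p = 0.0576), and Erbb4 was called by DESeq2 (adjusted p = 0.00974) and by edgeR without GF 4 (adjusted p = 0.0497), over a range of 0.00974 to 0.301 for all alternatives. With the stromal marker mean as a covariate the log2 fold change was 2.20 (edgeR adjusted p = 0.301). The sum of the stromal markers was also higher in every GF library, at 96.0 to 815 CPM in GF and 58.2 to 91.6 CPM in SPF libraries. Their mean as log2(CPM + 1), which served as the covariate, overlapped between the groups, at 3.00 in GF 1 and 3.06 in SPF 4. Egf itself was at 9.42 ± 0.643 CPM in GF and 7.01 ± 2.07 CPM in SPF libraries (edgeR adjusted p = 0.351).

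**Figure D4:**
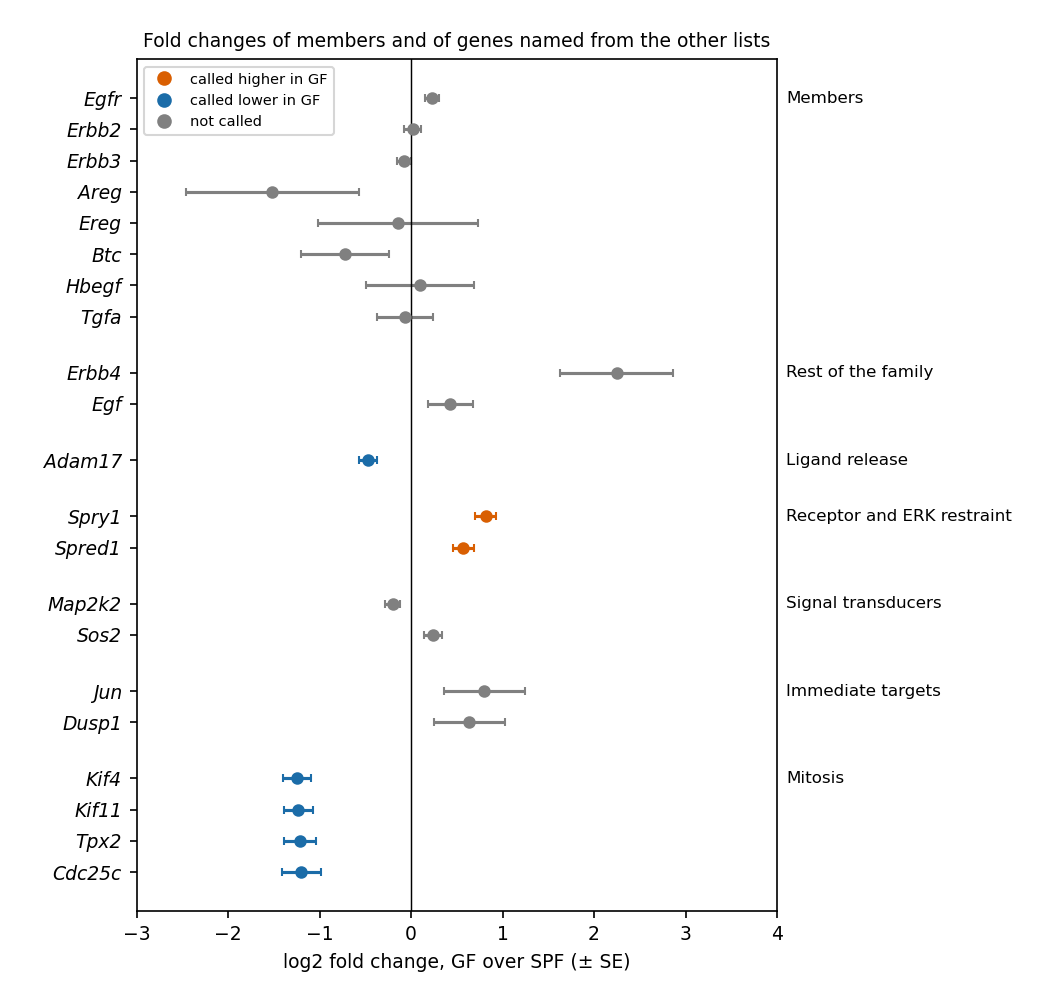
Log2 fold change, GF over SPF, with its SE (horizontal axis) for the 8 genes and for the genes named from 6 further lists, coloured by the call of edgeR's test. The 8 family genes at the top are all uncalled, Adam17 and the 4 mitotic genes lie to the left of 0 and Spry1 and Spred1 to the right.

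Of 6 genes of ligand release 5 were tested, 1 fell and 0 rose (median log2 fold change -0.03; 4.18% of all genes were called). The gene that fell was Adam17, which encodes the metalloprotease that sheds amphiregulin, epiregulin, HB-EGF and TGF alpha. It was at 98.7, 80.6, 79.3 and 80.1 CPM in GF and at 115.5, 126, 122 and 106 CPM in SPF libraries, with no overlap. The log2 fold change was -0.47 ± 0.10 (edgeR adjusted p = 0.0154), and limma voom and DESeq2 made the same call. The call ended without GF 4 (-0.45, adjusted p = 0.0551), without SPF 3 (-0.44, adjusted p = 0.0617), without SPF 4 (-0.45, adjusted p = 0.051), without both GF 3 and GF 4 (-0.39, adjusted p = 0.138) and with the stromal marker mean as a covariate (-0.40, adjusted p = 0.243).

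Genes that restrain the receptors and the ERK pathway held 2 rises. Of 21 tested 2 rose, 0 fell and 19 did not pass, with 17 above 0 (median log2 fold change 0.20; 1.85% of all genes rose). Spry1, a Sprouty inhibitor of receptor tyrosine kinase signalling that is itself induced by it, was at 63.3, 60.6, 55.5 and 61.9 CPM in GF and at 31.2, 34.1, 41.2 and 30.4 CPM in SPF libraries. The lowest GF library thus lay well above the highest SPF library. Its log2 fold change was 0.82 ± 0.12 (edgeR adjusted p = 0.00207), a call kept with any 1 library left out and ended with the stromal covariate, under which the fold change was 0.82 and the adjusted p 0.0517.
Spred1, a related inhibitor that acts on RAF activation, was at 73.2, 102, 89.0 and 92.0 CPM in GF and at 52.9, 69.2, 61.4 and 56.1 CPM in SPF libraries. It rose by 0.57 ± 0.12 on the log2 scale (edgeR adjusted p = 0.0166), a call that ended without GF 4 (0.56, adjusted p = 0.0549), without SPF 5 (0.54, adjusted p = 0.0525), without both GF 3 and GF 4 (0.54, adjusted p = 0.112) and with the stromal covariate (0.50, adjusted p = 0.243). The fold change itself moved little in these fits. None of 25 signal transducers was called by edgeR, DESeq2 or limma voom, with 3 at an unadjusted p under 0.05 by edgeR and a median log2 fold change of 0.01. The 2 with the smallest p were Map2k2, which encodes the ERK-activating kinase MEK2, at 114 ± 9.17 CPM in GF and 131 ± 2.32 CPM in SPF libraries, and Sos2, a RAS exchange factor, at 83.5 ± 4.62 CPM in GF and 70.8 ± 7.35 CPM in SPF libraries (edgeR adjusted p = 0.184 and 0.186).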

How the data were processed

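The deposited counts were raw whole numbers per gene for 8 libraries, per the file headers, made with a stranded total RNA kit with ribosomal RNA depletion, per the labels. Per the submitters' processing notes, which give no order, the tools were DESeq2 1.22.2, HTSeq 0.6.0, TopHat2 2.1.1, cutadapt 1.18 and bcl2fastq 2.18.0.12, and the build was GRCm38. Per the file headers the authors also gave normalized signal (counts divided by 1 factor per library, and their mean), log2 fold changes of SPF over GF with standard errors, a score (the Wald statistic) and p-values. Of these, the fold changes and adjusted p-values were copied.

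Low counts were filtered with filterByExpr of edgeR (a total of at least 15, and a count of 10 or its CPM equivalent in 4 libraries). The rest were scaled by TMM and tested GF against SPF with the robust quasi-likelihood F test, two-sided, threshold 0.05, with group as the only term. Standard errors and 95% intervals came from the F statistic. The procedure was tested on simulated data. The 8 genes and the lists were chosen with earlier results of these data known. Named from each other list were up to 4 called genes, or the 2 with the smallest p, and the 3 genes most like the member with the smallest p. Replicates were separate animals, per the series' design text. The floor of 3 counts covers counting error only. Alternatives were other size factors, DESeq2, limma voom, other filters, a replicate block, a stromal covariate and each library left out. Versions were DESeq2 1.42.0, limma 3.58.1, edgeR 4.0.16 and R 4.3.3.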

Additional observations from a re-analysis of the deposited data

Results flagged for a closer look

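In 64 sets of 4 library values (the named genes, the marker sums and the 2 list means, in each group), 5 held a library whose gap to its nearest neighbour passed Dixon's 95% critical value, where chance gives about 1 in 20. Tgfa was at 15.3 CPM in GF 4, with the next GF library at 7.13 CPM. Adam17 was at 98.7 CPM in GF 1, with the next GF library at 80.6 CPM, so GF 1 was the GF library nearest to the SPF libraries. The basal keratinocyte markers summed to 29788 CPM in SPF 4, with the next SPF library at 31420 CPM. The stromal markers summed to 815 CPM in GF 3, with the next GF library at 149.8 CPM. The salivary gland markers summed to 90.3 CPM in GF 4, with the next GF library at 2.51 CPM.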

How the results depend on the processing

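Counts of called genes moved most. Over all genes 631 were called by edgeR, against 1352 by DESeq2, 975 by limma voom, 315 with a replicate block, 51 with the stromal marker mean as a covariate, 129 without both GF 3 and GF 4 (an alternative chosen after seeing the data) and 284 to 688 with 1 library left out. Of the 8 family genes DESeq2 called 1 and every other alternative 0. Of the rest of the family DESeq2 called 1, and 0 to 1 were called with 1 library left out. Of the ligand release genes DESeq2 called 2, the block, the stromal covariate and leaving out both GF 3 and GF 4 each 0, and leaving out 1 library 0 to 1. Of the restraint genes the block called 1, the covariate 0, leaving out both GF libraries 1, and leaving out 1 library 1 to 3. Of the mitotic genes DESeq2 called 33, limma voom 36, the block 4, the covariate 1, leaving out both GF libraries 14, and leaving out 1 library 7 to 33. Under the block 2 immediate targets, Jun (0.89, adjusted p = 0.00514) and Dusp1 (0.75, adjusted p = 0.0201), were called, and the calls of Adam17 (-0.51, adjusted p = 0.0537) and Spred1 (0.46, adjusted p = 0.0596) ended with fold changes of about the same size, by edgeR. Of the members, Areg stood at -1.36 ± 0.57 (adjusted p = 0.268) and Hbegf at 0.58 (adjusted p = 0.475) under the block, by edgeR. The shared title numbers 1, 3 and 4 are not stated to mark a pairing. Same-numbered libraries had correlations of deviations of 0.19, -0.08 and -0.07. GF 1 correlated best with its own number, but GF 3 and GF 4 did not, so the block was not used.

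The log2 fold changes of 4 members changed sign, none of them called under any alternative. Erbb2 was -0.012 by limma voom, -0.0098 with no filter, -0.040 with the block, 0.13 without both GF 3 and GF 4 and -0.034 at the lowest with 1 library left out. Ereg was 0.24 by limma voom, 0.54 with the block, -1.38 without both GF libraries and 0.73 at the highest with 1 library left out. Hbegf was -0.40 with the stromal covariate, -0.32 without both GF libraries, and -0.23 to 0.41 with 1 library left out. Tgfa was 0.28 with the stromal covariate, and -0.49 to 0.072 with 1 library left out. The stricter filter removed Areg, Ereg, Btc and Erbb4, which have no value there. The cause of these changes was not tested. With 4 animals a group the intervals of Areg, Ereg, Btc and Hbegf are wide, and Ereg and Btc rest on at most 29 counts a library.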
